A study of Mus musculus with 57 samples.

Results

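The forkhead genes are the 44 protein-coding mouse genes of GENCODE M21 whose symbols run from Foxa to Foxs followed by a number, out of 55450 genes in the count table. They were chosen by a rule on names that uses no measured value, with earlier results of these data known. All 57 libraries were used, with 3 replicates for each of 19 conditions.

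The cells were one mouse embryonic stem cell line, Sox1-EGFP/FoxA2mCherry, a single clone in which EGFP takes the place of one Sox1 allele and mCherry is fused to FOXA2. All conditions carried both reporters, the D0 control included. The D0 control was the Sox1-FOXA2- gate. Before differentiation the cells were kept in serum medium with LIF. From D0 to D2, time, medium and retinoic acid thus cannot be told apart. At D2, D4 and D6 of differentiation with 1 uM retinoic acid (RA), cells were sorted into Sox1-FOXA2-, Sox1+FOXA2-, Sox1+FOXA2+ and Sox1-FOXA2+ gates. For the progeny, cells of the last 3 gates were sorted at D2, replated in a serum-based RA medium and collected at D4 and D6. The directly sorted cells stayed in N2B27 medium and were gated on the day of collection. For the progeny the study describes no second sort, so their labels give the gate at D2. Between progeny and sorted cells, replating, medium and the gate at collection thus cannot be told apart. Because the gates read the FOXA2 protein, the Foxa2 transcript is a check of the gate and not a finding.

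Forkhead proteins bind DNA through a winged helix domain and act in development, metabolism and the cell cycle. FOXA proteins are pioneer factors that open chromatin in endoderm, and FOXA2 also marks the floor plate of the neural tube. FOXO proteins are held out of the nucleus by AKT, FOXH1 works with SMAD proteins in Nodal signalling, FOXM1 drives mitotic genes, FOXJ1 drives motile cilia, and FOXP proteins act largely as repressors.

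Gene counts summed to between 10170632 and 81845651 in a library (median 36694379). Values below are counts divided by DESeq2 size factors, called normalized counts, on which 1 read was worth between 0.378 and 4.45. A library held counts of 18 to 36 forkhead genes, with a median of 26, and the family as a whole measured 657 to 1640 CPM. Sox1 and Sox2 were at 0 in every library, so the Sox1 gate could not be checked on its own gene. These 0s do not show absent expression. The study detected SOX1 protein in this line and SOX2 protein in another mouse embryonic stem cell line. The summed level of 9 visceral or parietal endoderm markers, Foxa2 among them, was 715108 to 1280873 in D6 progeny of Sox1-FOXA2+ cells against 27010.2 to 82319 in those of Sox1+FOXA2- cells. For 8 neuroectoderm markers the ranges were 6479 to 10762 and 46771 to 76973. In bulk libraries, fewer cells of a type and less RNA per cell cannot be told apart.

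Of the 44 genes, 13 had counts in all 57 libraries, 25 in 1 to 56 libraries, and 6 in none. The absences of 5 of these 6 go with their position. Foxc2, Foxf1 and Foxl1, regulators of mesoderm and its derivatives, lie on chromosome 8 wholly within the span of Gm20388, on the same strand. Foxb2 lies within AC128703.1 on chromosome 19, on the opposite strand. Foxp3, the regulator of regulatory T cells, lies on chromosome X, where Ccdc22, Flicr, Gm36995 and Ppp1r3f together cover 100% of its span. Across the table, 1351 of 1354 protein-coding genes wholly inside other genes had 0 counts (99.8%), and so did 684 of the 686 among them that share no exon base with another gene. Of 11798 protein-coding genes with no overlap, 331 had 0 counts (2.81%). A 0 of these 5 genes therefore says nothing about their expression.

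Foxd3, a factor of pluripotent and neural crest cells, was also at 0 in all 57 libraries, but only 3.83% of its span lies inside another gene, Gm23366. Its reason was not found in the table. Among genes partly covered, Foxb1 (68.1% of its span), Foxe1 (68%), Foxq1 (66.1%) and Foxp1 (44.4%) were among the most affected, so reads in the covered stretches would be missing from their counts. Fold changes between libraries compare what was left of each gene.

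**Figure D1:**
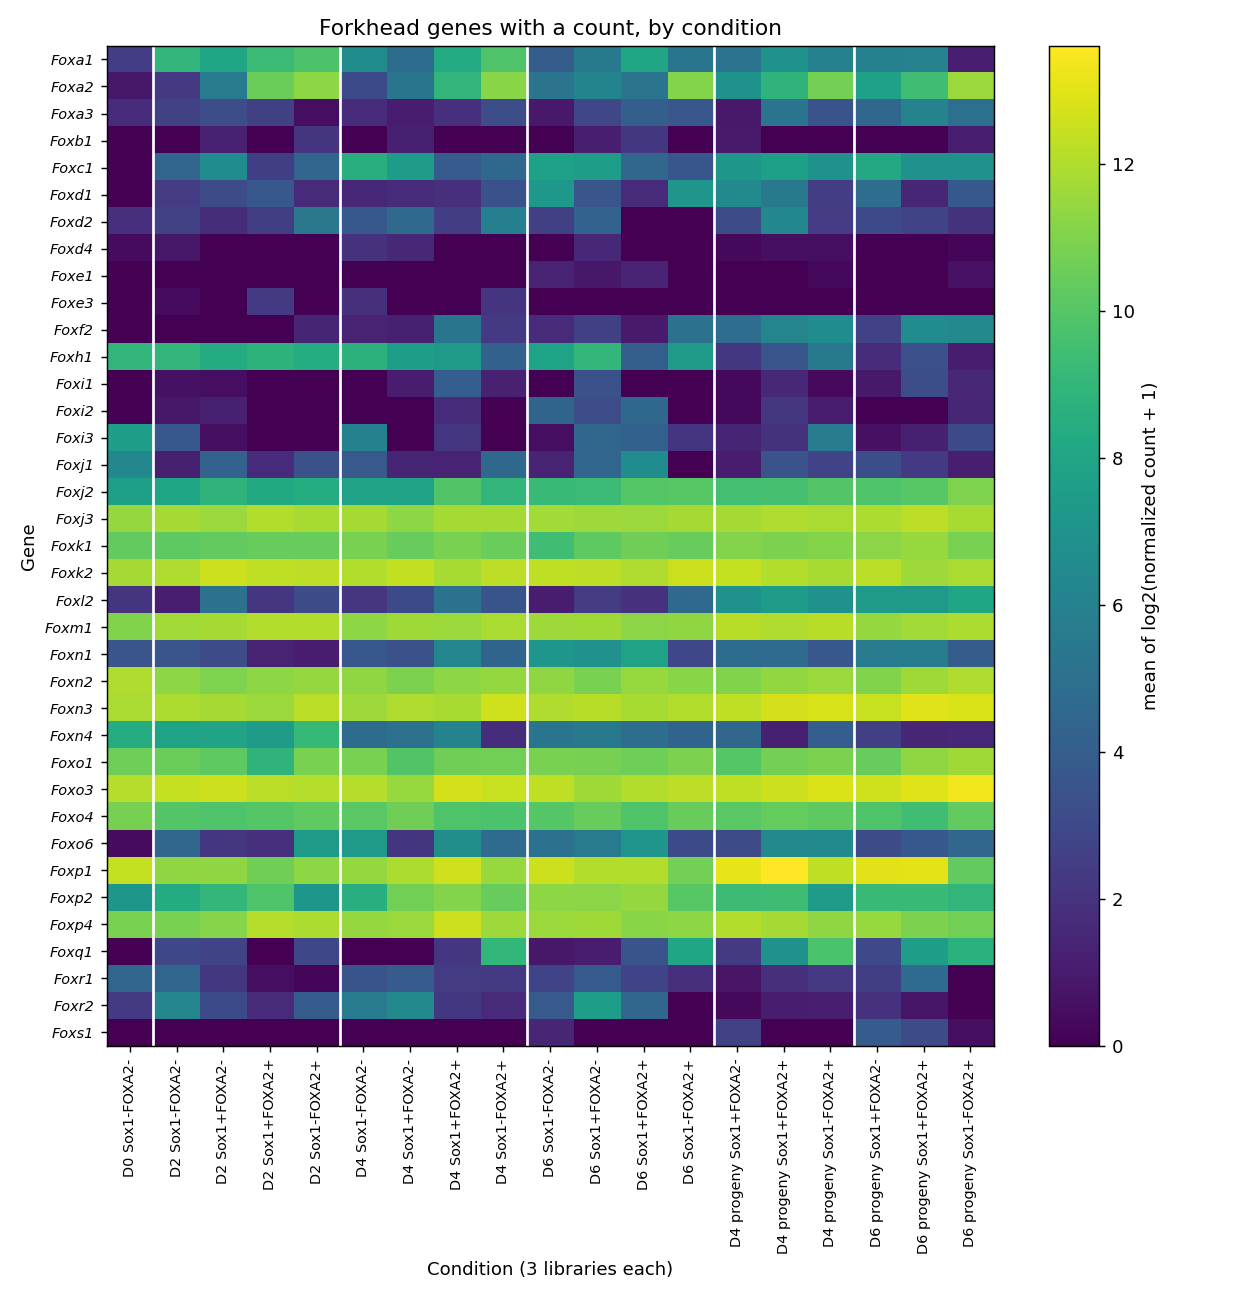
Mean of log2(normalized count + 1) over 3 libraries (colour) of forkhead genes with a count (rows) in the 19 conditions (columns), with white lines between days and between sorted cells and progeny. The 13 genes with counts in all 57 libraries stay bright in every column, whereas Foxa2 is brightest in the Sox1-FOXA2+ column of each day, and Foxq1 is so at D4 and D6 but hardly differs between that gate and both FOXA2- gates at D2.

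Levels were compared between genes per kilobase of exon outside other genes, as the median over the 57 libraries. Foxk2 was highest at 871 normalized counts per kilobase, followed by Foxo3 (729.7), Foxm1 (705), Foxp4 (602), Foxn3 (417), Foxn2 (353), Foxj3 (350), Foxo4 (337), Foxp1 (312) and Foxk1 (224). These are mostly broadly expressed regulators of metabolism, growth and the cell cycle. Since the pattern above goes with counting over whole spans, introns included, long genes may gain. Per kilobase of whole span, Foxm1 ranked 1, Foxo4 ranked 2, Foxh1 ranked 3 and Foxk2 ranked 4.

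The 13 genes seen everywhere differed in how much they varied. The ratio of the highest to the lowest condition mean was 1.94 for Foxj3, 1.98 for Foxk2 and 2.14 for Foxm1, and reached 12.1 for Foxp2. The 5 rarest genes with a count, Foxb1, Foxd4, Foxe1, Foxe3 and Foxs1, were seen in 4 to 9 libraries.

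Genes seen in only some libraries had their highest means in many different conditions. Foxi3, a factor of ectodermal placodes, measured 418, 366 and 45.5 at D0. Foxl2, known from the ovary and pituitary, measured 267, 307 and 224 in D6 progeny of Sox1-FOXA2+ cells, but also 292, 182 and 73.8 in those of Sox1+FOXA2- cells. Foxn4, a factor of retinal and spinal progenitors, measured 104, 651 and 583 at D0 and 350.5, 1109 and 436 in Sox1-FOXA2+ cells at D2.

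Replicates of these genes often disagreed. Foxd2 measured 9.2, 707 and 0 in Sox1+FOXA2- cells at D6, and Foxf2 451, 0 and 136 in Sox1+FOXA2+ cells at D4. Foxr2 was seen in 10 of 30 libraries of FOXA2+ gates and their progeny and in 21 of 27 others, with 139.9, 177 and 281 in Sox1+FOXA2- cells at D6. A gene is named as called where its adjusted p was under 0.05 in a fit over all genes with edgeR, and a gene not called is not shown to be unchanged. None of Foxd1, Foxd2, Foxf2, Foxi1, Foxi2, Foxi3, Foxj1, Foxl2, Foxn1, Foxn4, Foxo6, Foxr1, Foxr2 and Foxb1 was called in any comparison, nor were Foxa1, Foxa3, Foxh1, Foxj3, Foxk2, Foxm1 and Foxo4. Over the 27 comparisons, 35 members passed the filter on low counts at least once, 22 passed it in all, 13 were called at least once, and 9 were never tested, namely Foxd4, Foxe1, Foxe3 and the 6 at 0.

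Foxa genes were followed first. In sorted Sox1-FOXA2+ cells Foxa2 measured 3241, 3057 and 1646 normalized counts at D2, 2164, 2716 and 2267 at D4 and 2697, 1478 and 2585 at D6. The Sox1+FOXA2- gate held 308, 324 and 0, 3.09, 55.8 and 251 and 131, 124 and 20.3. The gates did not overlap on any of the 3 days. In Sox1+FOXA2+ cells the values were 1582, 1956 and 1067 at D2, 214, 528 and 1091 at D4 and 0, 728 and 76.6 at D6. The library of replicate 1 at D6 thus held no Foxa2 count, against its gate.

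Foxa1, a close paralog that binds the same core motif, went differently in its measured values. It measured 0, 169 and 0 at D0, and by D2 it was present in every gate, with 387, 395 and 826 in Sox1-FOXA2- cells and 788, 767 and 1227 in Sox1-FOXA2+ cells. In Sox1-FOXA2+ cells it then measured 529.8, 1858 and 845 at D4 and 381, 157 and 0 at D6. In their progeny it was 26.7, 310.3 and 26.9 at D4 and 0, 10.3 and 0 at D6. In the D6 progeny Foxa2 was at its highest mean of all conditions, 3065 ± 226 (SD, n = 3), and Foxa1 at its lowest, 3.42 ± 5.93 (SD, n = 3). Foxa1 in D6 progeny of Sox1+FOXA2- cells measured 85.8, 26.2 and 104, above all 3 libraries of Sox1-FOXA2+ progeny, but the difference was not called (log2 fold change -4.31 ± 1.73 SE, adjusted p = 0.189). It was called in 1 of the 6 fits that leave out a library, that without Sox1-FOXA2+ replicate 2 (adjusted p = 0.0419). Foxa3, a liver and gut paralog, had counts in 38 libraries and a highest condition mean of 79, with 8.14, 0 and 229 in its libraries.

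The promoter windows of Foxa1 and Foxa2 are shown because the measured values of the 2 paralogs took different courses over these conditions. That difference in course was not tested. Windows of 300 bases, from 250 before to 50 after the start, come from RefSeq on GRCm38.p6, which gave 33 windows for 28 of the 44 genes. Capitals mark the forkhead core TGTTTAC or the GATA motif AGATAA, searched on both strands. The first window is that of Foxa1 at chr12:57546062-57546361, on the minus strand, which holds the forkhead core. It is the only one of the 33 forkhead windows with that core, which 3.65% of all 32851 windows hold. The second is 1 of 3 windows of Foxa2, at chr2:148045415-148045714, on the minus strand, with a GATA motif, held by 11.2% of all windows. The other Foxa2 windows hold neither motif. A match is a description of letters and not a binding site.
Foxa1: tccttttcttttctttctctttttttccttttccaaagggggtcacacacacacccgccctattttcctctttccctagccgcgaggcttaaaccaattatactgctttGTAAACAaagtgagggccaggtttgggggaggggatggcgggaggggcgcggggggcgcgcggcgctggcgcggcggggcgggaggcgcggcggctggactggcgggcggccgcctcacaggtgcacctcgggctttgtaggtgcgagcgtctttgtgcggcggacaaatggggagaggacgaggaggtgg
Foxa2: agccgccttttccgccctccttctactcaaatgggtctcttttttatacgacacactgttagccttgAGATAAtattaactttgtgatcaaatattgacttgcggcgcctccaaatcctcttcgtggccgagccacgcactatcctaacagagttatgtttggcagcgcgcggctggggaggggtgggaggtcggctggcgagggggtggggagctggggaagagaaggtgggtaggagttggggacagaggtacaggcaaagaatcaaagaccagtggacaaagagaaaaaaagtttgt

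Foxq1, a factor known from epithelia, had counts in 22 of 30 libraries of FOXA2+ gates and their progeny and in 11 of 27 others. At D4 it measured 559.5, 475 and 523 in Sox1-FOXA2+ cells and 0, 0 and 0 in Sox1+FOXA2- cells, at least 546-fold higher when 3 counts over the group stand for 0. The difference was not called at D4 (adjusted p = 0.284) or at D6 (log2 fold change 7.14 ± 3.18 SE, adjusted p = 0.371), where the values were 529, 275 and 129 and 7.36, 0 and 0. At D2 it was seen in 1 of 3 Sox1-FOXA2+ libraries, at 394.

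**Figure D2:**
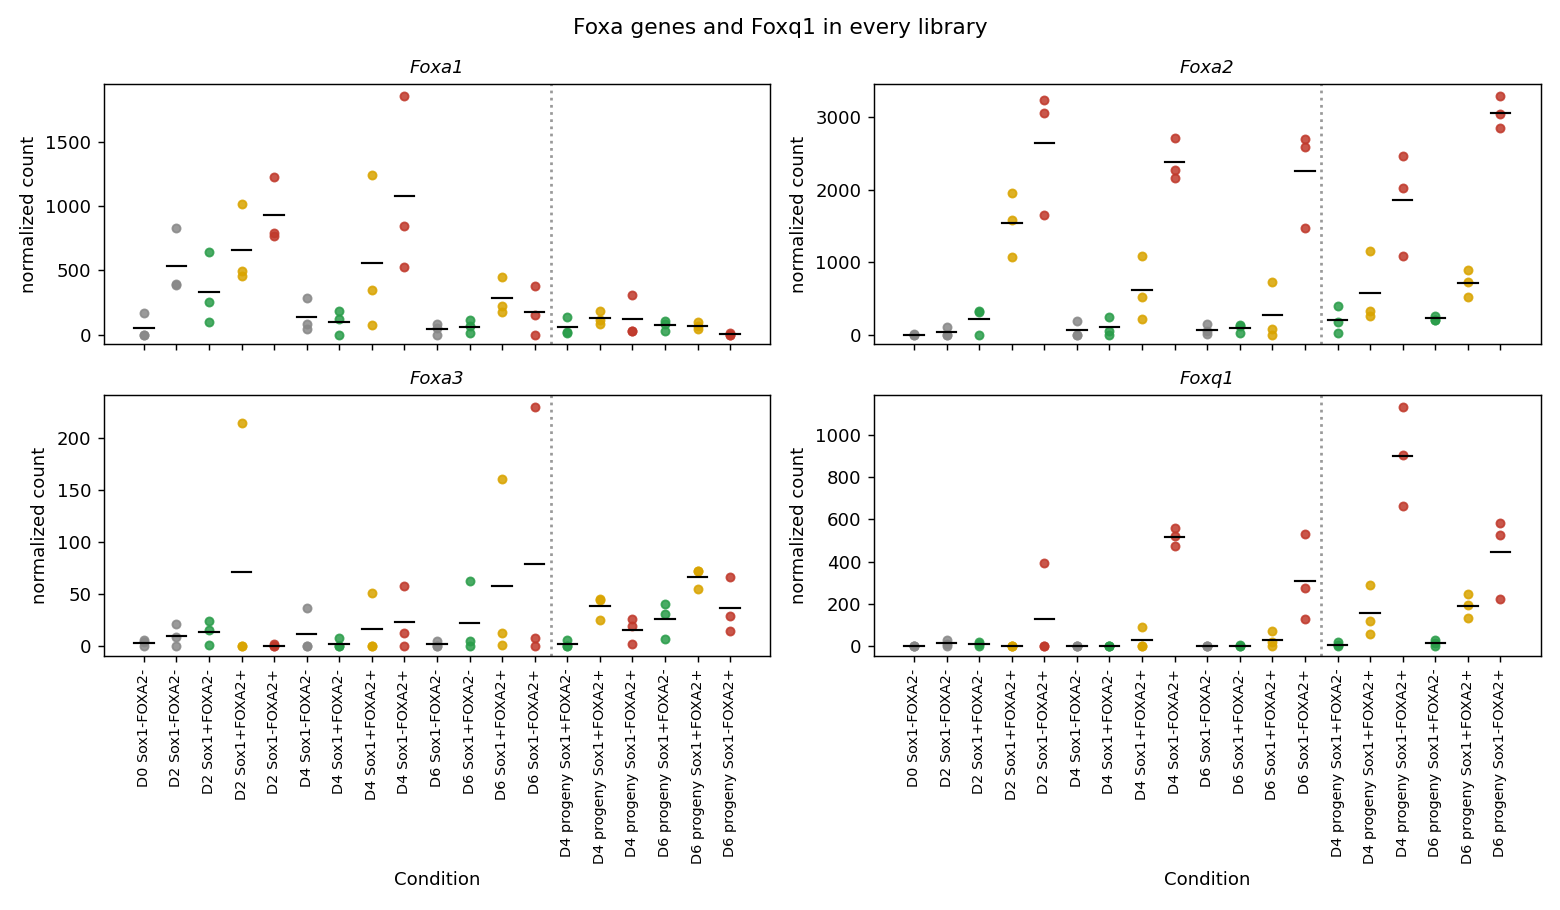
Normalized counts (linear axis from 0) of Foxa1, Foxa2, Foxa3 and Foxq1 in each of the 57 libraries (points, coloured by gate), with black bars at the mean of 3 libraries and a dotted line between sorted cells and progeny. Foxa2 stays high in Sox1-FOXA2+ cells and their progeny, while Foxa1 falls to between 0 and 10.3 in their D6 progeny.

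Among directly sorted cells, tests across all genes called few forkhead genes. With Sox1-FOXA2+ set against Sox1+FOXA2- cells, 0 of 28 tested members were called at D2 with edgeR (0.00491% of all genes called), 0 of 32 at D4 (0.266%) and 0 of 31 at D6 (1.32%). At an unadjusted p under 0.05 the numbers were 0, 5 and 8. Over all genes they were 1031 of 20369, 1250 of 22946 and 3255 of 24203. DESeq2 called 0, 0 and 5 members. Foxa2, the gate gene, was not called at D6 (log2 fold change 4.76 ± 1.75 SE, adjusted p = 0.319), although its 2 gates did not overlap. Sox1+FOXA2+ cells gave 0 called members on each day with edgeR. Against Sox1+FOXA2- cells, 0% of all genes were called at D2 and at D4 and 0.0496% at D6. Against Sox1-FOXA2+ cells, these were 0%, 0.475% and 0.0909%. At an unadjusted p under 0.05 these 6 comparisons gave between 0 and 4 members. Over all genes they gave between 1073 and 3432 of the 20369 to 24203 tested. DESeq2 called between 0 and 2 members. Against Sox1-FOXA2- cells, Sox1-FOXA2+ cells gave 0 called members at D2 (0.0196% of all genes) and at D4 (0.336%). At an unadjusted p under 0.05 there were 3 and 4 members, and 1533 of 20369 and 1560 of 22946 genes. DESeq2 called 1 and 2 members.

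The single call among gates of sorted cells was Foxp1, a repressor with roles in neural and blood lineages. At D6 it measured 1276, 1427 and 2931 in Sox1-FOXA2+ cells and 4887, 4109 and 11310 in Sox1-FOXA2- cells (log2 fold change -1.91 ± 0.47 SE, adjusted p = 0.0328), 1 of 31 members tested where 1% of all genes were called. The call was lost without Sox1-FOXA2+ replicate 1 or 2 or Sox1-FOXA2- replicate 3, with an adjusted p of up to 0.452. These fits took no account of the replicate number, although same-numbered libraries deviated together here (correlations of 0.123 to 0.3005). With all libraries and the replicate number as a block, edgeR called Foxp1 as well (log2 fold change -1.815, adjusted p = 0.00294).

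In D4 progeny, Foxq1 was the 1 called member of 29 when Sox1-FOXA2+ was set against Sox1+FOXA2-, where 1.97% of all genes were called. It measured 1129.6, 661 and 903 against 0, 20.8 and 4.53 (log2 fold change 6.46 ± 0.90 SE, adjusted p = 3.0e-04), and the call held in all 6 fits that leave out a library. It was lost in a fit of all 57 libraries. Progeny of Sox1+FOXA2+ cells lay between, at 57.5, 289 and 121. They were not called against either side, but with the replicate number as a block, which these libraries bear out, Foxq1 was called against both (log2 fold change 4.04, adjusted p = 0.0244 and log2 fold change -3.04, adjusted p = 0.011). The block also called Foxo1 between Sox1-FOXA2+ and Sox1+FOXA2- progeny (log2 fold change 0.97, adjusted p = 0.0366) and Foxp1 between Sox1+FOXA2+ and Sox1-FOXA2+ progeny (log2 fold change 1.17, adjusted p = 0.00234). Without the block, edgeR called 0 of 29 members against Sox1+FOXA2- cells (0.00483% of all genes called) and 0 of 29 against Sox1-FOXA2+ cells (0.792%), with 1 and 2 at an unadjusted p under 0.05, and DESeq2 called 1 and 2.

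In D6 progeny, 7 of 30 tested members were called for Sox1-FOXA2+ against Sox1+FOXA2- cells, 23.3% of them, where 6.91% of all genes tested were called. Foxa2, the gate gene, is 1 of the 7. Of these, 5 were higher (3.59% of all genes) and 2 lower (3.32%) in Sox1-FOXA2+ progeny. The endoderm and neuroectoderm markers given above moved with the same groups, and their part in these results was not tested. Over the 30 members the median log2 fold change was 0.244, against -0.0407 over all genes. The number called was 2 to 5 in the 6 fits that leave out a library and 1 in the fit of all 57 libraries. DESeq2 called 10 members.

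Of the called genes that were higher in Sox1-FOXA2+ progeny, Foxa2 and Foxq1 differed most. Foxa2 measured 2848, 3299.6 and 3047 against 205, 205 and 264 (log2 fold change 3.74 ± 0.30 SE, adjusted p = 4.4e-06), 4 days after the gate was set. Foxq1 measured 584, 225 and 528 against 15.8, 0 and 30.7 (log2 fold change 4.96 ± 1.11 SE, adjusted p = 0.0128). The call of Foxa2 held without any one library, and that of Foxq1 ended when Sox1+FOXA2- replicate 1 was left out (adjusted p = 0.0754).

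The other 3 that were higher are widely expressed genes, and their log2 fold changes lay between 0.98 and 1.14. Foxo1, a target of insulin and AKT signalling, measured 3741, 3467 and 2536 against 1345, 1826 and 1131 (log2 fold change 1.14 ± 0.26 SE, adjusted p = 0.0126). Foxj2, a broadly expressed activator, measured 2481, 1955 and 1781 against 1134, 917 and 812 (log2 fold change 1.08 ± 0.27 SE, adjusted p = 0.0233). Foxn2 measured 5994, 3813 and 2973 against 1964, 1990.3 and 2404 (log2 fold change 0.98 ± 0.27 SE, adjusted p = 0.0435). None of the 3 overlapped between groups, as was true of 8 higher and 5 lower members of 30 (background 12.8% and 13.3%). Foxo1 was lost without Sox1+FOXA2- replicate 1 or Sox1-FOXA2+ replicate 2 (adjusted p up to 0.0522). Foxj2 was lost without replicate 1 or 2 of Sox1-FOXA2+ or replicate 2 or 3 of Sox1+FOXA2- (up to 0.0803). Foxn2 was lost without replicate 1 or 2 of either gate (up to 0.184).

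The 2 that were lower in Sox1-FOXA2+ than in Sox1+FOXA2- progeny were both Foxp genes. Foxp1 measured 440.5, 2572 and 1997 in Sox1-FOXA2+ progeny against 7405, 10965 and 6505 (log2 fold change -2.37 ± 0.55 SE, adjusted p = 0.0282). Foxp4 measured 1573, 2105 and 1472 against 3101, 2836 and 2754 (log2 fold change -0.79 ± 0.22 SE, adjusted p = 0.0437). Foxp1 was lost without any of the 3 Sox1+FOXA2- libraries or Sox1-FOXA2+ replicate 3 (adjusted p up to 0.208), and Foxp4 without any library but Sox1-FOXA2+ replicate 2 (up to 0.221). Both stayed lower in all 6 of these fits.

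**Figure D3:**
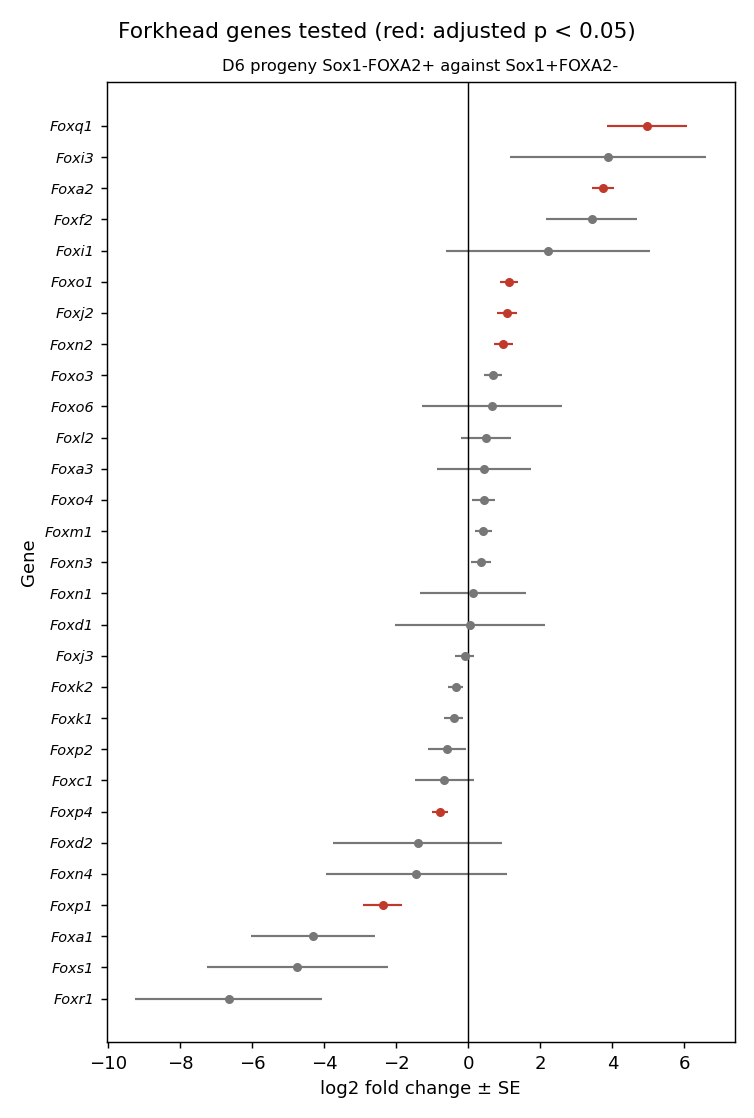
Log2 fold changes (points) with standard errors (bars) of tested forkhead genes between D6 progeny of Sox1-FOXA2+ and Sox1+FOXA2- cells, in order of size, with the 7 genes called in red. Foxq1 and Foxa2 lie farthest to the right of the called genes, and Foxp1 farthest to the left of them.

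Progeny of Sox1+FOXA2+ cells were next set against each single-positive progeny at D6. Foxa2, at 524, 889 and 728, was the 1 called member of 30 against Sox1+FOXA2- cells (log2 fold change 1.62 ± 0.28 SE, adjusted p = 0.0234), where 0.18% of all genes were called. That call was lost without any of the 3 Sox1+FOXA2- libraries or Sox1+FOXA2+ replicate 2 (adjusted p up to 0.161). Against Sox1-FOXA2+ cells, 2 of 30 were called where 4.63% of all genes were. Foxa2 was lower (log2 fold change -2.12 ± 0.28 SE, adjusted p = 5.1e-04), and the call held without any one library. Foxp1, at 7176, 11916 and 6937, was higher (log2 fold change 2.37 ± 0.55 SE, adjusted p = 0.0386). It was lost without any Sox1+FOXA2+ library or Sox1-FOXA2+ replicate 3 (adjusted p up to 0.174). With the replicate block, which the libraries of both comparisons bear out, these 3 calls stayed. The adjusted p of Foxa2 was 0.0357 against Sox1+FOXA2- and 9.5e-04 against Sox1-FOXA2+ progeny, and that of Foxp1 was 0.00934. Against Sox1-FOXA2+ progeny the block called Foxj2 as well (log2 fold change -0.93, adjusted p = 0.0346). The comparisons share libraries, so their calls are not independent.

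**Figure D4:**
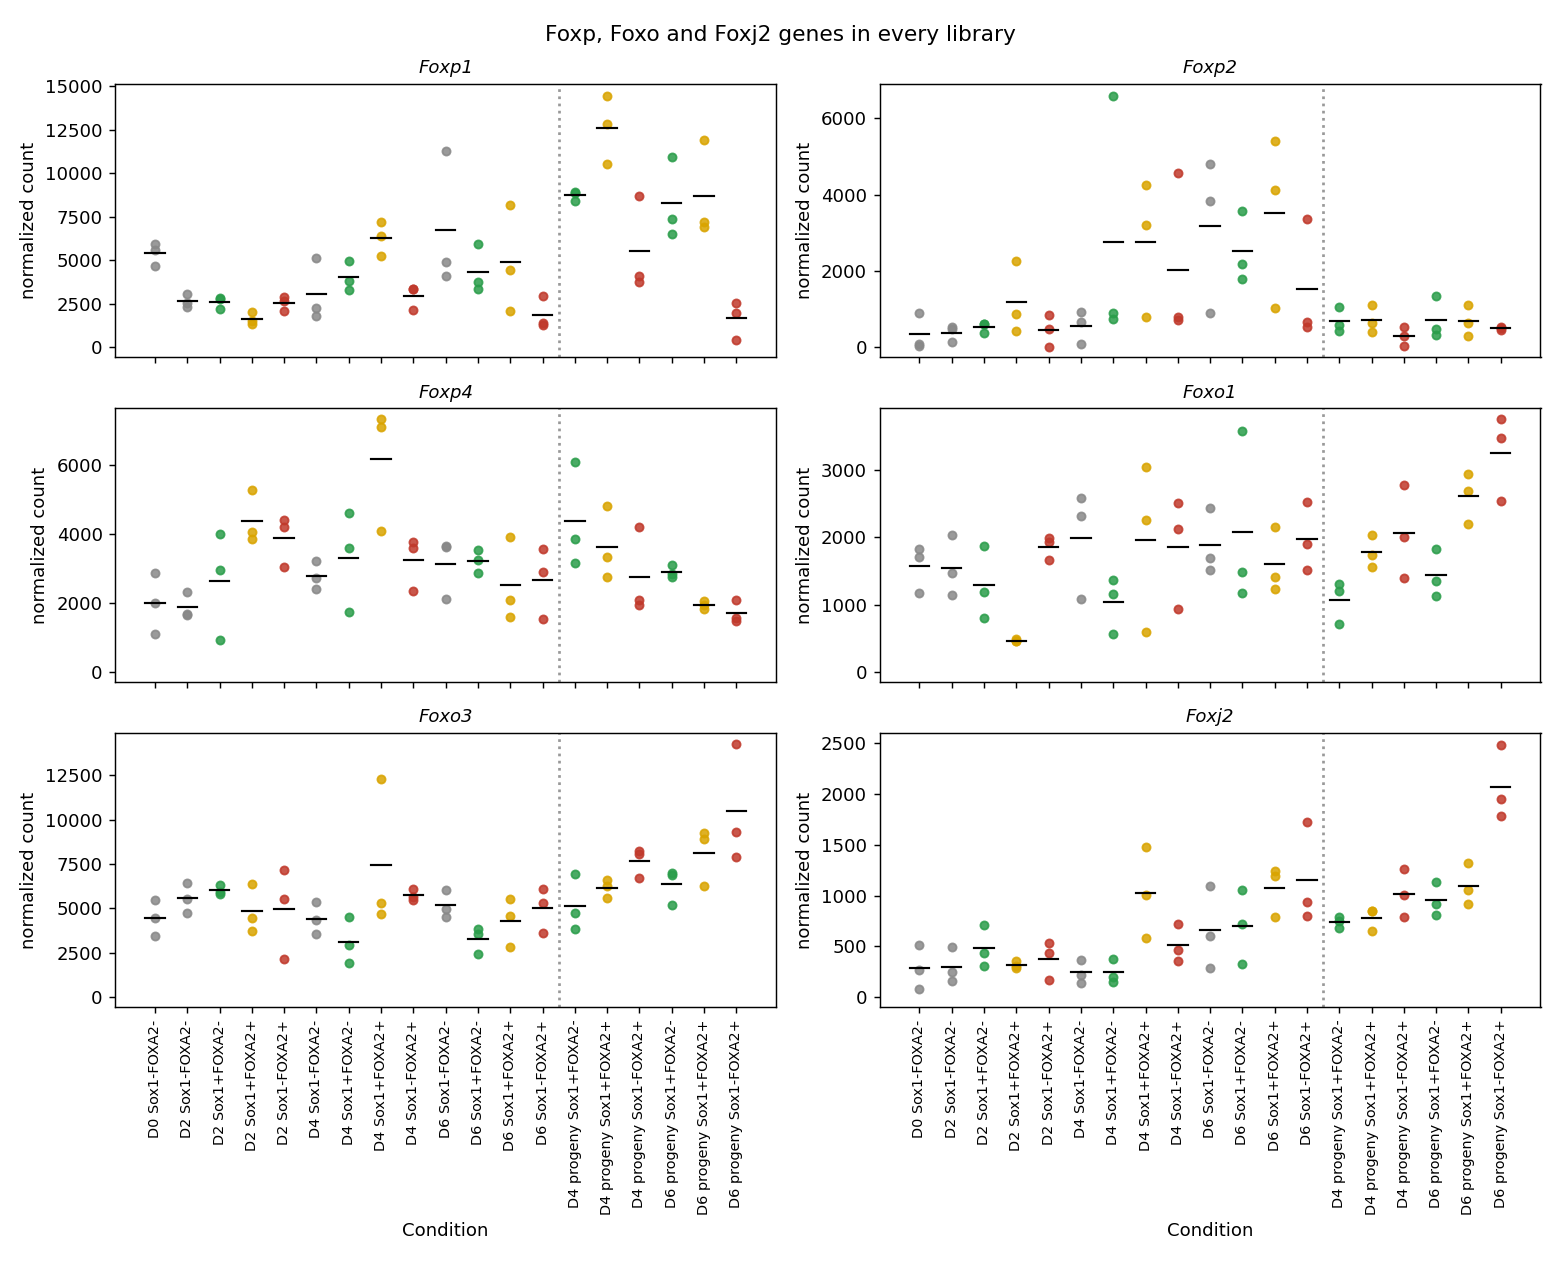
Normalized counts (linear axis from 0) of Foxp1, Foxp2, Foxp4, Foxo1, Foxo3 and Foxj2 in each of the 57 libraries (points, coloured by gate), with black bars at the mean of 3 libraries and a dotted line between sorted cells and progeny. Foxp1 in D6 progeny of Sox1-FOXA2+ cells lies between 440 and 2572, below the other D6 progeny.

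Over time, 1 member was called, Foxc1, a mesoderm and neural crest factor, from D0 to D2 in Sox1-FOXA2- cells. The medium also changed over that step. Foxc1 was at 0 in all 3 D0 libraries and measured 65.2, 0 and 161 at D2. That is at least 70.4-fold higher when 3 counts over the D0 group stand for 0. It was the 1 called member of 28 (adjusted p = 0.0495), where 1.93% of all genes were called. Of the D2 libraries 1 was also at 0, and the call was lost in 5 of the 6 fits that leave out a library, all but that without D2 replicate 2, with an adjusted p of up to 0.137. From D2 to D6, edgeR called 0 members in each of the 4 gates, where 0.0188% of all genes were called for the Sox1-FOXA2- gate, 2.23% for Sox1-FOXA2+, 0% for Sox1+FOXA2- and 0.126% for Sox1+FOXA2+. The numbers at an unadjusted p under 0.05 were 3, 6, 2 and 4. Over all genes they were 1454 of 21278, 2812 of 19407, 2538 of 22328 and 2973 of 21429. DESeq2 called 0, 1, 0 and 4 members.

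Progeny were also compared with sorted cells of the same day over the 3 gates together. At D4, 2 of 32 members were called (6.25%), where 6.75% of all genes were, and at D6 5 of 34 (14.7%), where 12.3% were, so both shares lie near those of all genes. Their median log2 differences were 0.183 and 0.42, against -0.238 and -0.28 over all genes.

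Foxp2, a factor of neural development, was lower in progeny on both days. It ranged from 527 to 5391 (median 2186) in the 9 sorted D6 libraries of the 3 gates and from 308 to 1337 (median 519) in the 9 progeny libraries (log2 fold change -1.70 ± 0.37 SE, adjusted p = 0.00237), so the ranges overlapped. At D4 it was lower as well (log2 fold change -2.14 ± 0.55 SE, adjusted p = 0.0281), a call lost in 8 of 18 fits that leave out a library (adjusted p up to 0.0961). Those libraries were replicates 2 and 3 of sorted Sox1+FOXA2+ cells and replicate 3 of sorted Sox1+FOXA2- cells, and in progeny replicate 1 of Sox1-FOXA2+ and replicates 2 and 3 of Sox1+FOXA2- and of Sox1+FOXA2+. Foxp1 was higher in D4 progeny, with 3780 to 14453 (median 8896) against 2161 to 7223 (median 3810.5) (log2 fold change 1.07 ± 0.18 SE, adjusted p = 2.1e-04). This call held in all 18 fits.

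At D6, 4 of the 5 called members were higher in progeny (6.19% of all genes) and 1 lower (6.12%). The higher ones included Foxo3, an AKT-regulated factor of stress response, with 5202 to 14259.9 (median 7885) against 2438 to 6081 (median 3824) (log2 fold change 1.16 ± 0.18 SE, adjusted p = 6.3e-05). Foxk1, which acts in growth and metabolism, measured 1553 to 4266 (median 2365) against 787 to 2245 (median 1699.9) (log2 fold change 0.90 ± 0.24 SE, adjusted p = 0.013), and Foxn3, a repressor tied to the cell cycle, 4276 to 10969.7 (median 6887) against 1228 to 8403 (median 4563) (log2 fold change 0.82 ± 0.24 SE, adjusted p = 0.025). The calls of Foxo3, Foxk1 and, at D6, Foxp2 held in all 18 fits that leave out a library, and Foxn3 was lost in 1, without sorted Sox1-FOXA2+ replicate 3 (adjusted p = 0.0508). Foxs1, a factor of vessel-associated cells, was at 0 in the 9 sorted libraries of the 3 gates and at 15.8, 6.24 and 30.7 in Sox1+FOXA2- progeny, 33.1, 0 and 20.8 in Sox1+FOXA2+ progeny and 0, 0 and 1.8 in Sox1-FOXA2+ progeny (adjusted p = 0.0229). It was lost without sorted Sox1+FOXA2- replicate 1 or 3 (up to 0.0502). The summed level of 7 mesenchyme and neural crest markers was 64224 to 102729 in D6 progeny of Sox1+FOXA2- cells against 1251 to 2203 in sorted ones. For Sox1+FOXA2+ cells it was 25310.2 to 35347 against 2604 to 18276. For Sox1-FOXA2+ cells it was 10381 to 38664 against 7705 to 24131, and only in this gate did the ranges overlap. The part of these markers in the results was not tested.

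**Figure D5:**
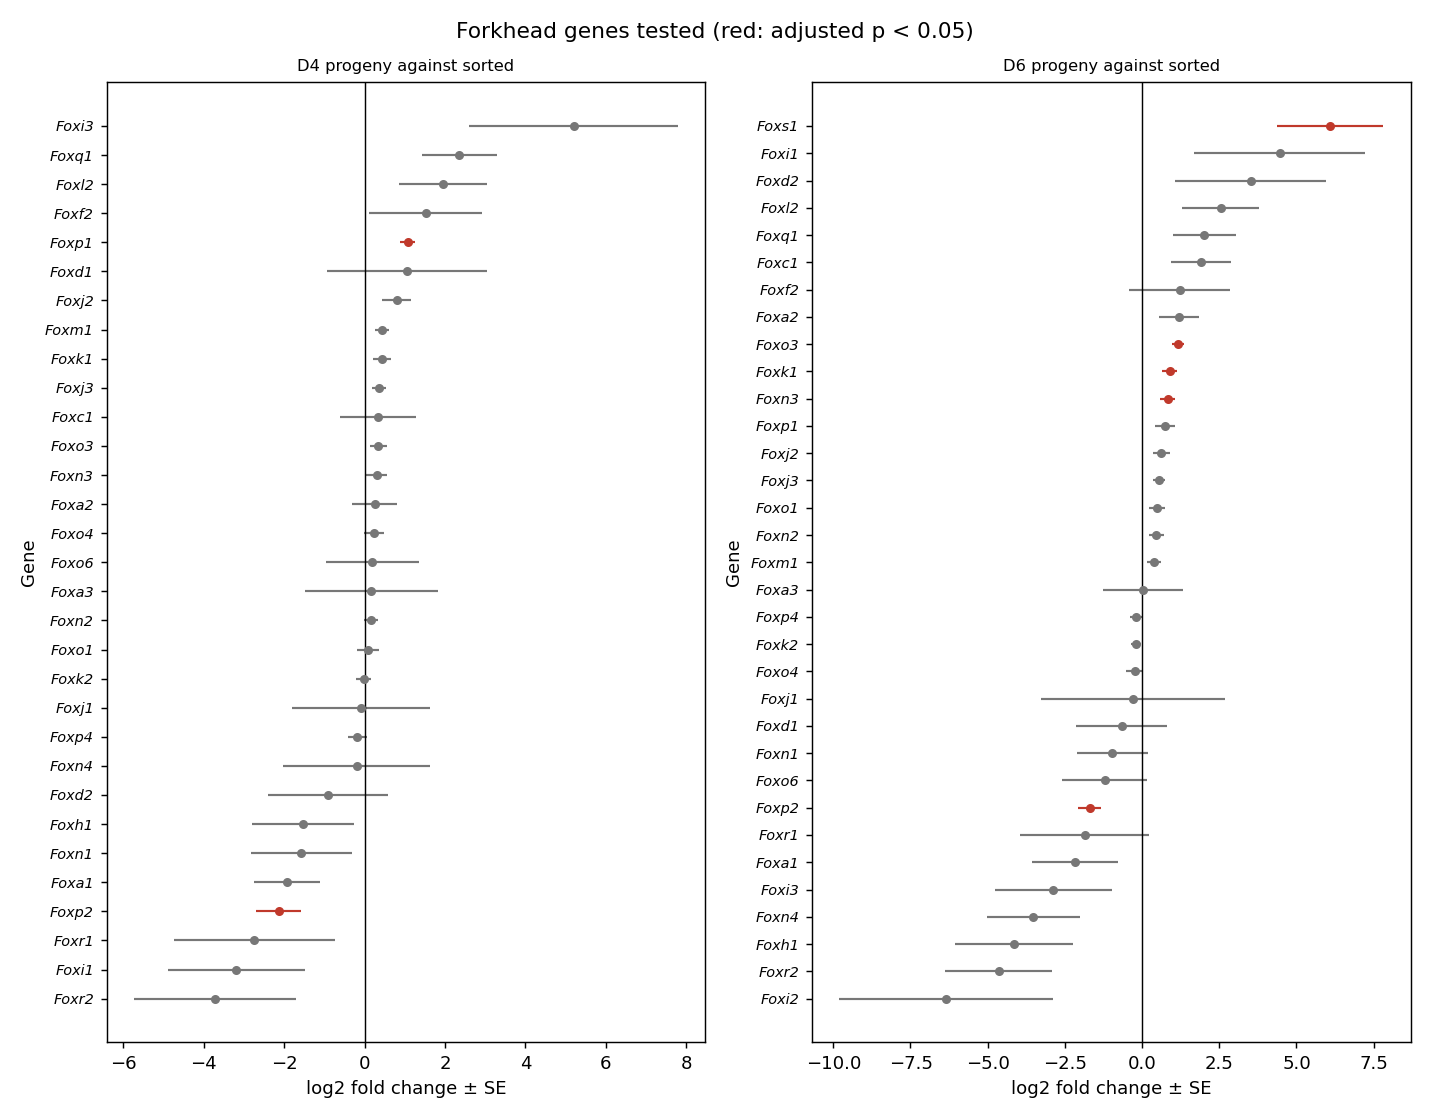
Log2 fold changes (points) with standard errors (bars) of tested forkhead genes between progeny and sorted cells at D4 (left) and D6 (right), over 3 gates, with called genes in red. Foxp2 lies left of 0 on both days, and Foxo3, Foxk1, Foxn3 and Foxs1 lie right of 0 at D6.

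Whether the difference between Sox1-FOXA2+ and Sox1+FOXA2- cells itself changed was tested for all genes. The edgeR test called 0 of 31 members for D6 against D2 (0.524% of all genes called) and 0 of 32 for D6 progeny against D6 sorted cells (0.211%). At an unadjusted p under 0.05 there were 4 and 2 members, and 2364 of 22532 and 2982 of 23203 genes. DESeq2 called 0 members in both. The larger number of calls in progeny is therefore not shown to be a larger difference.

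Genes known to work with forkhead factors were counted in 9 lists, with log2 fold changes given below. The lists were chosen with earlier results of these data known. From these same libraries, the study had already reported Gata4, Gata6, Sox7 and Dab2, and on the opposite side Nes and Sox9, among genes that separate these populations. Counts of such genes describe that known difference and are no independent test of it. Of 16 FOXA partners and endoderm targets, 15 were tested in D6 progeny of Sox1-FOXA2+ against Sox1+FOXA2- cells, of which 9 were higher and 0 lower, where 3.59% of all genes were called higher and 3.32% lower. Among them were Gata4 (4.52, adjusted p = 3.4e-06), Sox17 (2.36, adjusted p = 0.00301), both endoderm transcription factors, and Lama1, a laminin of the basement membrane (5.07, adjusted p = 7.3e-04). Gata6, Sox7, Dab2, Cubn and Col4a1 were higher as well. The median log2 fold change of the 15 was 2.65, against -0.0407 over all genes. In sorted cells, 3 of 14 were higher at D4 and 7 of 16 at D6, and in D4 progeny 8 of 13, with 0 lower in each. In these comparisons 0.266%, 1.32% and 1.97% of all genes were called, counting both directions.

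In the other 8 lists 3 or fewer genes were called in this comparison, and the list medians ran from -2.22 for mesenchymal to 0.882 for floor plate genes. Of 10 neural genes listed as forkhead partners, 3 of 7 tested were lower, namely Nes (-2.46, adjusted p = 4.7e-05), Pax6 (-3.47, adjusted p = 0.0101) and Emx2 (-3.97, adjusted p = 0.0117). Of 10 FOXD3 and neural crest genes, Sox9 (-2.73, adjusted p = 3.4e-05) and Snai2 (-4.38, adjusted p = 0.0265) were lower. Of 12 FOXC and FOXF mesenchymal genes, Pdgfra was higher (2.11, adjusted p = 0.0169) and Twist1 lower (-2.44, adjusted p = 0.00925). Of 11 FOXH1 and Nodal genes tested, Smad2 was higher (0.99, adjusted p = 0.00785) and Smad3 lower (-1.15, adjusted p = 0.0283). Sgk1 (1.07, adjusted p = 0.0481) was the 1 called of 13 FOXO kinases and targets, and Birc5 (1.06, adjusted p = 0.0408) the 1 called of 12 FOXM1 targets. No member of the 8 floor plate genes or the 10 motile cilia targets was called. In every list, genes that did not pass the filter on low counts were not tested.

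Between progeny and sorted cells at D6, 6.19% of all genes were called higher and 6.12% lower. Of 13 FOXO-related genes tested, 5 were higher and 1 lower, with the upstream kinases Akt1 at 1.56 and Pik3ca at 1.14. The median of that list was 0.738 against -0.28 over all genes. The list joins upstream kinases and targets, so these numbers give no direction of FOXO activity. The FOXM1 list was lower in 4 of 12, with Cenpf at -1.01, and the motile cilia list lower in 4 of 10, with Dnah5 at -2.46, although neither Foxm1 nor Foxj1 was called. Of the Nodal genes, Gdf3, Lefty1 and Lefty2 were lower and Smad3 and Smad4 higher. Foxh1 measured 0 to 211 (median 0) in progeny and 0 to 696 (median 131) in sorted cells, and its difference was not called (log2 fold change -4.15 ± 1.92 SE, adjusted p = 0.161).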

How the data were processed

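RNA of small pools of cells was sequenced with a SMART-Seq Stranded kit. The authors aligned reads with STAR and counted them per gene with SAMtools and featureCounts on GENCODE M21 (GRCm38), per the study's methods and the submitters' processing notes, and deposited raw counts of 57 libraries in 19 groups of 3. Versions and the strand setting are not given in the sources used here. A further 92 lines that name no gene held 0 counts. The pattern of genes at 0 given above goes with counting over whole gene spans without strand.

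Members, gene lists and the rule for named genes (all members, each in the comparisons in which it was called, and called list genes) were chosen with earlier results of these data known. Groups were taken from the sample labels. The study describes the 3 replicates of a condition as biological, all from the one clone, and p-values measure the spread between these libraries.

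Each of 27 comparisons was fitted over all genes with edgeR 4.0.16 (R 4.3.3, limma 3.58.1): TMM scaling, filterByExpr (minimum count 10, total 15), a robust quasi-likelihood test, prior count 0.125, and Benjamini-Hochberg adjusted p under 0.05 as the threshold. All groups of a day, sorted or progeny, shared one fit, and so did all days of a sorted gate for comparisons over time. Groups outside a comparison of 2 groups thus entered its filter, scaling and estimate of spread. Progeny and sorted cells of a day were fitted together over the 3 gates. The procedure was first tested on simulated data. DESeq2 1.42.0 gave size factors and an alternative test. Further alternatives were its size factors in edgeR, no filter, all 57 libraries in one fit, a replicate block, other lengths for levels, a fit without robust estimation and 141 fits that leave out a library. Same-numbered libraries deviated together (every correlation over 0.1 among 5000 genes) in 13 of 23 comparisons of 2 groups, the pairs of D4 progeny and D6 progeny of Sox1+FOXA2+ cells against both others among them. No fold is given against a group at 0 except as a bound from 3 counts over the group. Counting error alone is covered by these floors. Figures were drawn with matplotlib 3.10.9. Some items are not reported here.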

Additional observations from a re-analysis of the deposited data

How the results depend on the processing

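The number of forkhead genes called depended on the test more than on the scaling. The number of all genes called with DESeq2 also differed from that with edgeR in all 27 comparisons. Its share of all genes is not given here, so its member counts have no background beside them. In D6 progeny of Sox1-FOXA2+ against Sox1+FOXA2- cells DESeq2 called 10 members, and in D6 progeny against sorted cells 7. With DESeq2, 2 were called in D2 Sox1+FOXA2+ cells against each single-positive gate, 2 and 1 at D4, 5 in D6 Sox1-FOXA2+ against Sox1+FOXA2- cells, 2 in D6 Sox1+FOXA2+ against Sox1-FOXA2+ cells, 3, 1 and 2 in the 3 D4 progeny comparisons, 3 and 6 in D6 progeny of Sox1+FOXA2+ cells, 1, 2 and 5 for Sox1-FOXA2+ against Sox1-FOXA2- cells at D2, D4 and D6, 2 from D0 to D2, 1 and 4 from D2 to D6 in Sox1-FOXA2+ and Sox1+FOXA2+ cells, and 6 in D4 progeny against sorted cells. Without a filter on low counts, 1 or 2 were called in comparisons with 0 or 1 before, 3 in D4 progeny of Sox1+FOXA2+ against Sox1-FOXA2+ cells and 4 in D4 progeny against sorted cells. In one fit of all 57 libraries, 0 were called in D4 progeny of Sox1-FOXA2+ against Sox1+FOXA2- cells, 1, 0 and 1 in the 3 D6 progeny comparisons, 0 from D0 to D2, and 1 and 8 in D4 and D6 progeny against sorted cells. With DESeq2 size factors in edgeR, the D6 Sox1-FOXA2+ against Sox1-FOXA2- number was 0. Without robust estimation, an alternative chosen after seeing the data, it was also 0, as from D0 to D2, and 2 in D4 progeny of Sox1-FOXA2+ against Sox1+FOXA2- cells. The cause was not tested.

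With the replicate block, 2, 1 and 2 were called in the D4 progeny comparisons and 0 from D0 to D2, where the numbers do not pair the libraries (adjusted p of Foxc1 = 0.0695). The block lost no other call and added only those in the report.

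Leaving out 1 library gave 2 to 5 calls in D6 progeny of Sox1-FOXA2+ against Sox1+FOXA2- cells, 4 to 8 in D6 and 1 to 3 in D4 progeny against sorted cells, 1 to 2 in D4 progeny of Sox1-FOXA2+ against Sox1+FOXA2- cells and in D6 progeny of Sox1+FOXA2+ against Sox1-FOXA2+ cells, and 0 to 1 in 7 more.

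Directions turned only for uncalled values. The log2 fold change of Foxp1 in D2 Sox1-FOXA2+ against Sox1+FOXA2- cells was 0.00341 without the filter, 0.00809 in one fit, and between -0.14 and 0.07 over fits without 1 library, with 0.0729 and 0.0333 without Sox1-FOXA2+ replicate 1 or Sox1+FOXA2- replicate 2. Foxq1 at D2 ranged from -6.88, without Sox1-FOXA2+ replicate 2, to 4.27, and Foxa1 in D4 progeny from -1.22, without Sox1-FOXA2+ replicate 2, to 2.94 (log2). At 1 count per 0.378 to 4.45 normalized counts, genes seen in few libraries could not be compared.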
